A study of Mus musculus with 6 samples.

Results

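The genes described here are 40 genes of the cell division cycle, chosen by symbol, and all 40 were found among the 39179 genes of the deposited expression table. These genes, their role classes and the further lists below were chosen with earlier results of these data known. Their shares beside those of all genes tested are therefore descriptions and not tests. The cells were liver endothelial cells of male wild-type mice of the 129S6/SvEvTac strain, isolated by flow sorting, with 3 biological replicates per group and 1 library each. The high_iron mice ate a purified diet with 10000 ppm carbonyl iron, and the control_iron mice the same kind of diet with 37 ppm iron as ferric citrate. Both groups began the diet at 3 weeks of age, stayed on it for 4 weeks and were sampled at 7 weeks. Sorted cells carried CD31 and CD146, and cells with CD45, CD64, MHCII or lineage antigens were gated out.

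A cell that divides first passes the G1 checkpoint, where cyclins D and E with their kinases inactivate the RB proteins and free the E2F factors. In S phase the MCM helicase, loaded at origins by CDC6 and CDT1, unwinds DNA while PCNA holds the polymerases and ribonucleotide reductase supplies deoxynucleotides. Cyclin B with CDK1, the Aurora and Polo kinases, kinesin motors and kinetochore proteins then carry out mitosis, and APC/C ends it by marking their regulators for destruction. Adult liver endothelium divides rarely, and transcripts of the mitotic machinery are low in cells that rest. The 40 genes were split by role into 3 G1 cyclins, 14 genes of replication and nucleotide supply, and 23 genes of mitosis, a class in which Ccna2, Top2a and Mki67 were also placed.

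Promoters of these classes carry known sequence elements, and they are shown here as background. Windows from 250 bases before to 50 bases after the annotated start were taken from RefSeq on GRCm38.p6 and were found for 32 of the 40 genes. The cell cycle homology region, or CHR, is the element that the MuvB complex binds in mitotic genes, and it was searched as TTTGAA or TTCGAA. The CCAAT box, bound by NF-Y, was searched as CCAAT. E2F sites were searched as TTTCCCGC, TTTCGCGC, TTTGGCGC or TTTGCCGC. Each was read on both strands. The CHR was present in 16 of 20 windows of the 19 mitotic genes found (80.0%), in 3 of 13 windows of the 12 replication genes found (23.1%) and in 19.2% of all 32851 windows. CCAAT was present in 18 of the 20 mitotic windows (90.0%), in 10 of the 13 replication windows (76.9%) and in 37.4% of all windows. An E2F site was present in 1 mitotic window (5.0%), in 6 replication windows (46.2%) and in 2.26% of all windows. Such a match is a run of letters and not a shown binding site. The 3 mitotic genes with a negative difference between diets, Aurka, Bub1b and Cenpa, held both CHR and CCAAT matches. Cdc6 and Rrm2, the replication genes whose groups did not overlap, held no CHR match. How the elements relate to the differences between diets was not tested.

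The windows of the 3 mitotic genes with the smallest p in the comparison of diets follow, with matches to the 3 elements on either strand in capitals.
Top2a (chr11:99024140-99024439, minus strand): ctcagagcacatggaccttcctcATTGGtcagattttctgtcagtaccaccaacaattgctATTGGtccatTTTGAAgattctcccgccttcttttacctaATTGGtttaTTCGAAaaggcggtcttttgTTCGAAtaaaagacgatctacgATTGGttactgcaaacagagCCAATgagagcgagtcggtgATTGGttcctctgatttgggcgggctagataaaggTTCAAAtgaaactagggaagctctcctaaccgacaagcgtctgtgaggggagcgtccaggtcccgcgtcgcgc
Cenpf (chr1:189688037-189688336, minus strand): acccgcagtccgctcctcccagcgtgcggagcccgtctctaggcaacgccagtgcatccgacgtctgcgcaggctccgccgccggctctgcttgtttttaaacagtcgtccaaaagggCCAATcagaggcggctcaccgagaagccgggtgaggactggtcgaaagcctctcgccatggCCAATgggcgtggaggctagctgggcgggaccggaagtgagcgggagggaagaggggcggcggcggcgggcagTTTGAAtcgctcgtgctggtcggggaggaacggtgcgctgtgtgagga
Mki67 (chr7:135716330-135716629, minus strand): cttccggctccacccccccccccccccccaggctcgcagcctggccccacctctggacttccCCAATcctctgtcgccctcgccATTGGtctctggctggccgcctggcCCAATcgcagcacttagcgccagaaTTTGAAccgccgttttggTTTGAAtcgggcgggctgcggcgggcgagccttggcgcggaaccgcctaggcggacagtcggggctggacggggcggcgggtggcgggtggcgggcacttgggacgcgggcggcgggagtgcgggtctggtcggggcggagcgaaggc
Top2a held 4 CHR matches and 6 CCAAT matches, Cenpf held 1 and 2, and Mki67 held 2 and 3. None of these 3 windows held an E2F match. Among the replication genes with a window, which Mcm4 and Gins2 lack, the 3 with the smallest absolute difference between diets are given in the same way, and for Mcm7 the one listed first of its 2 windows is shown.
Mcm7 (chr5:138171834-138172133, minus strand): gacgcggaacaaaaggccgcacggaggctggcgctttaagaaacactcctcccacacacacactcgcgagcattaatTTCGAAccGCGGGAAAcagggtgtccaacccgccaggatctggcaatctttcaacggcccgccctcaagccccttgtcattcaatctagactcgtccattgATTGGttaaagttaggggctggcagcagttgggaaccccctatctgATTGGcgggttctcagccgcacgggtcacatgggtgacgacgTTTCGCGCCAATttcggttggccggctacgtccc
Mcm5 (chr8:75109259-75109558, plus strand): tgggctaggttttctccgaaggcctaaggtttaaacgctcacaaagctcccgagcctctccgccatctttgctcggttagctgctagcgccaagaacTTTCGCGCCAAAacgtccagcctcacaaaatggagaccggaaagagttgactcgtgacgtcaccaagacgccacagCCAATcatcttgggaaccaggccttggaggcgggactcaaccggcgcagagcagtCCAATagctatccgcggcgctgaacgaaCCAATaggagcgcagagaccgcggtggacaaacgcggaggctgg
Pcna (chr2:132253131-132253430, minus strand): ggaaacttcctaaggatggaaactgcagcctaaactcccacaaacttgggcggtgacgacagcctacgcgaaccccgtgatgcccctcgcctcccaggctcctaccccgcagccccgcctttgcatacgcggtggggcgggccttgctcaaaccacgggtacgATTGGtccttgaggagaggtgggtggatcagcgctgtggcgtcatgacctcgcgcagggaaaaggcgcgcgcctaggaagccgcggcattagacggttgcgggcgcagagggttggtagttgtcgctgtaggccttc
Mcm7 held 1 CHR match, 3 CCAAT matches and 2 E2F matches, the later of which shares its last base with a CCAAT box. Mcm5 held no CHR match, 3 CCAAT matches and 2 E2F matches that overlap on opposite strands. Pcna held 1 CCAAT match and neither of the other elements.

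Reads assigned to genes numbered 12963510 to 21663543 per library. Levels are given as CPM, reads scaled to the library size, and differences as high_iron minus control_iron of log2(CPM + 1). Adding 1 shrinks the differences of genes with few reads. Genes were tested where at least 3 of the 6 libraries reached 1 CPM, with limma and Benjamini-Hochberg adjustment over all 12980 such genes and a threshold of 0.05. Of the 40 cell cycle genes 39 passed this filter, each with at least 1 control_iron library at 1 CPM or more, and Ccnb1 did not. Cdc6, Bub1 and Kif11 reached 1 CPM in all 3 high_iron libraries and in only 1 control_iron library. Markers of sinusoidal endothelium were abundant in every library, with Stab2 between 2927 and 3626 CPM in high_iron and between 3254 and 4440 CPM in control_iron. Across the tested genes, which are not independent replicates, Pearson's r was 0.964 to 0.988 for pairs of libraries on the same diet and 0.951 to 0.981 for pairs on different diets.

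Most mitotic genes (20 of 23) and most replication genes (11 of 14) had a positive difference in the sorted cells of high_iron mice. Groups overlapped for most replication genes and for a smaller share of the mitotic genes. Of the 40 genes, Top2a alone passed the threshold, and it rose. Over all genes tested 1.02% passed (133 genes) and 0.832% passed upward. Of the 40, 33 had a positive difference, where 49.5% of all genes tested did. In 15 of the 40 (37.5%) the 3 high_iron libraries were all above the 3 control_iron libraries, where 9.46% of all genes tested were. In none of the 40 were they all below, against 8.44% of all genes tested. An unadjusted p under 0.05 was found for 16 of the 40 upward and for 0 downward, where 7.3% and 4.82% of all genes tested had one. These 15 genes without overlap comprised 12 of 23 mitotic genes, 2 of 14 replication genes and 1 of 3 G1 cyclins. The median log2 difference was 0.63 over the mitotic genes, 0.28 over the replication genes and -0.003 over all genes tested. Without control_iron replicate 3 the replication median was 0.14. Among the 4087 genes tested with a mean under 10 CPM, where most mitotic genes lie, the median was -0.004 and 9.35% did not overlap upward. The difference between the medians of the mitotic and replication classes was 0.35 and was not tested. In bulk RNA more cycling cells, more RNA per cycling cell and a different share of other cells in the sort cannot be told apart. Summed macrophage markers, described below, averaged 378 CPM in high_iron and 116 CPM in control_iron libraries.

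**Figure D1:**
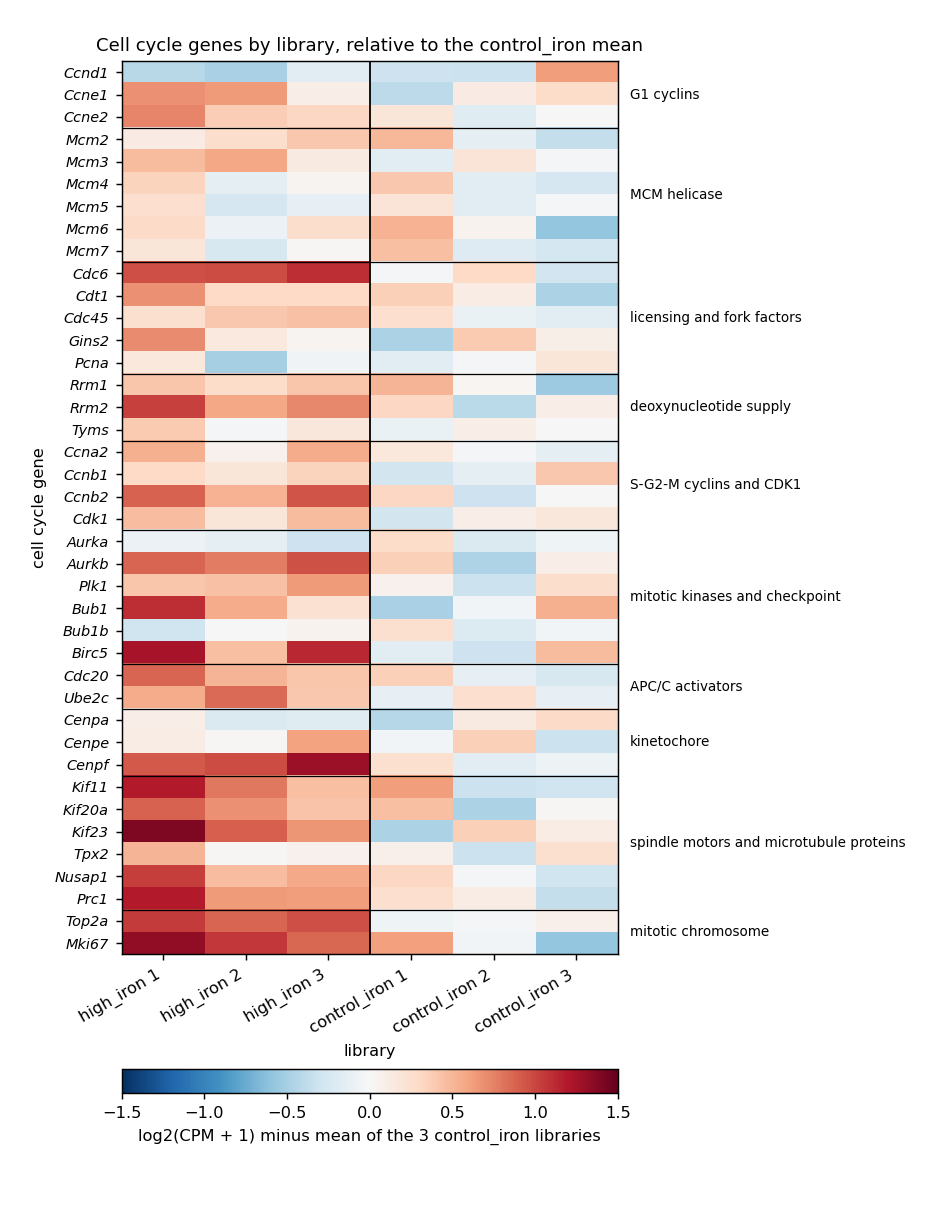
Level of each of the 40 cell cycle genes in each library, as log2(CPM + 1) minus the mean of the 3 control_iron libraries (colour; red is above that mean), with high_iron libraries on the left and genes grouped by role. The rows of Top2a, Mki67, Cenpf and Cdc6 are red in all 3 high_iron libraries, whereas MCM rows are pale and mixed.

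Top2a encodes topoisomerase II alpha, which untangles sister chromatids, and Mki67 encodes Ki-67, the coat of mitotic chromosomes used as a marker of proliferation. Top2a (ENSMUSG00000020914) occupies chr11:98992943-99024189 in GRCm38 (minus strand) and has 36 merged exons. It had 16.6, 14.6 and 15.6 CPM in the high_iron libraries, against 7.17, 7.43 and 7.97 CPM in the control_iron libraries. The groups were well apart, and each varied little. The means were 15.6 ± 1.01 and 7.52 ± 0.41 CPM (SD, n = 3 each), a 2.08-fold ratio, with a log2 difference of 0.96 ± 0.18 (SE) and an adjusted p of 0.041 by limma. That call depended on all 6 libraries. Its adjusted p lay between 0.054 and 0.22 with any 1 library left out, and the log2 difference stayed between 0.92 and 1.01. Mki67 had 14.6, 12 and 10.3 CPM in high_iron libraries, against 8.57, 5.06 and 3.19 CPM in control_iron libraries. No library of one diet reached those of the other, but the control_iron libraries were widely spread. Its log2 difference of 1.08 ± 0.30 (SE), the largest of the 40, did not pass (adjusted p = 0.16 by limma), and it did without control_iron replicate 1 (adjusted p = 0.033).

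**Figure D2:**
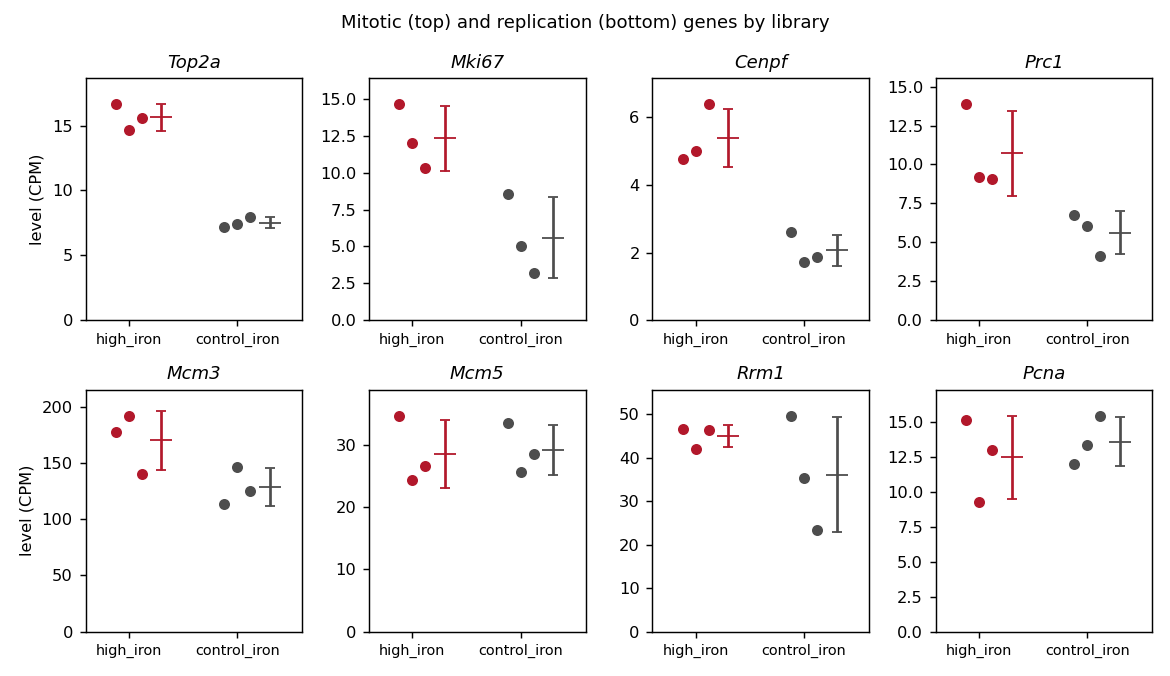
Level in CPM (vertical axis, from 0) of 4 mitotic genes in the upper row and 4 replication genes in the lower row, with a point per library and a bar for the mean ± SD of 3 libraries beside each group. Top2a, Mki67, Cenpf and Prc1 do not overlap between diets, and Mcm3, Mcm5, Rrm1 and Pcna do.

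Among kinetochore genes the 3 members differed from each other. Cenpf, a large protein of the outer kinetochore that peaks in G2 and mitosis, had 4.77, 5.01 and 6.38 CPM in high_iron, against 2.60, 1.72 and 1.88 CPM in control_iron libraries. Every high_iron library was above every control_iron library, by a 2.61-fold ratio of means, and the log2 difference of 1.06 ± 0.23 (SE) fell short of the threshold (adjusted p = 0.071 by limma). DESeq2 on whole reads, which called 3.27% of all genes, called Cenpf beside Top2a (adjusted p = 0.011). In edgeR, which called 0.924%, Cenpf did not pass (adjusted p = 0.11) and Top2a did (adjusted p = 0.045). Cenpe, the kinesin that tethers kinetochores to microtubules, had 1.77 to 3.15 CPM in high_iron and 1.20 to 2.51 CPM in control_iron libraries, which overlap. Cenpa, the histone H3 variant that marks centromeres, had 77.5, 62.0 and 63.3 CPM in high_iron, against 53.4, 79.3 and 88.3 CPM in control_iron libraries. Its groups overlapped, and its log2 difference was -0.10 ± 0.20 (SE).

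Spindle genes had positive differences in 6 of 6 cases, with a median of 0.75, and none passed the threshold. Prc1, which bundles microtubules of the central spindle, had 13.9, 9.20 and 9.07 CPM in high_iron, against 6.75, 6.04 and 4.10 CPM in control_iron libraries. Kif23, the kinesin of the same midzone that builds the midbody, had 4.77, 3.07 and 2.46 CPM in high_iron, against 0.571, 1.81 and 1.37 CPM in control_iron libraries, a 2.75-fold ratio of means. Nusap1, a protein that anchors microtubules near chromosomes, averaged 6.28 ± 1.6 CPM in high_iron and 3.51 ± 0.956 CPM in control_iron libraries (SD, n = 3 each). These 3 did not overlap between diets, and high_iron replicate 1 was the highest library for each. Of the exon length of Prc1, 11.1% overlaps Rccd1 on the opposite strand, and the cDNA kit does not mark strand, so reads of such partners cannot be told apart. Kif11, the motor that pushes spindle poles apart, had 4.36, 3.07 and 2.23 CPM in high_iron, against 2.65, 0.882 and 0.911 CPM in control_iron libraries, so that control_iron replicate 1 lay within the high_iron range. Kif20a, a kinesin of cytokinesis, overlapped by the same library, and 29.3% of its exon length overlaps Cdc23 on the opposite strand. Tpx2, which activates Aurora A on the spindle, had the smallest difference of the 6, at 0.20 ± 0.25 (SE, log2).

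Of the kinases and checkpoint genes, Aurkb and Birc5 stand for the chromosomal passenger complex, of which Aurora B is the kinase and survivin a subunit. Aurkb had 4.21, 3.83 and 4.54 CPM in high_iron, against 2.65, 1.07 and 2.05 CPM in control_iron libraries. Birc5 had 4.36, 2.12 and 4.00 CPM in high_iron, against 1.04, 0.836 and 2.16 CPM in control_iron libraries. Aurkb did not overlap between diets, whereas high_iron replicate 2 fell just under control_iron replicate 3 for Birc5. Their log2 differences were 0.87 ± 0.26 and 0.94 ± 0.31 (SE), with adjusted p-values of 0.21 and 0.25 by limma. Plk1, the Polo kinase of mitotic entry, averaged 4.73 ± 0.496 CPM in high_iron and 3.11 ± 0.828 CPM in control_iron libraries (SD, n = 3 each) without overlap. Bub1, a kinase of the spindle checkpoint, ranged from 1.15 to 2.98 CPM in high_iron and from 0.312 to 1.65 CPM in control_iron libraries. Aurka and Bub1b did not share this direction. Aurka, the kinase of spindle poles, averaged 2.45 ± 0.268 CPM in high_iron and 2.95 ± 0.711 CPM in control_iron libraries. Bub1b, which encodes the checkpoint protein BUBR1, averaged 7.48 ± 1.06 and 7.98 ± 1.41 CPM in high_iron and control_iron libraries.

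Mitotic cyclins, Cdk1 and the APC/C activators had positive differences in 6 of 6 cases, and none passed the threshold. Ccnb2, a B-type cyclin, had 5.75, 4.24 and 6.07 CPM in high_iron, against 3.53, 1.95 and 2.68 CPM in control_iron libraries. Cdk1, the kinase it activates, had 17.1, 13.9 and 17.3 CPM in high_iron, against 9.87, 13.1 and 13.8 CPM in control_iron libraries. Neither overlapped, though high_iron replicate 2 was barely above control_iron replicate 3 for Cdk1. Ccna2, the cyclin of S phase and early mitosis, averaged 8.11 ± 1.66 CPM in high_iron and 5.92 ± 0.716 CPM in control_iron libraries (SD, n = 3 each), its groups overlapped, and 12.5% of its exon length overlaps Exosc9 on the opposite strand. Ccnb1, the other B-type cyclin, was the lowest of the 40 genes, with 0.719, 0.590 and 0.769 CPM in high_iron, against 0.156, 0.279 and 0.854 CPM in control_iron libraries. It rested on 3 to 15 reads per library, has near-identical copies and was not tested under the filter of 1 CPM. With a filter of 0.5 CPM it was tested and did not pass. Cdc20 and Ube2c, the activator and the ubiquitin-conjugating enzyme of APC/C, did not overlap and had log2 differences of 0.60 ± 0.26 and 0.60 ± 0.23 (SE). For Ube2c, 22.8% of the exon length overlaps Tnnc2 on the opposite strand.

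**Figure D3:**
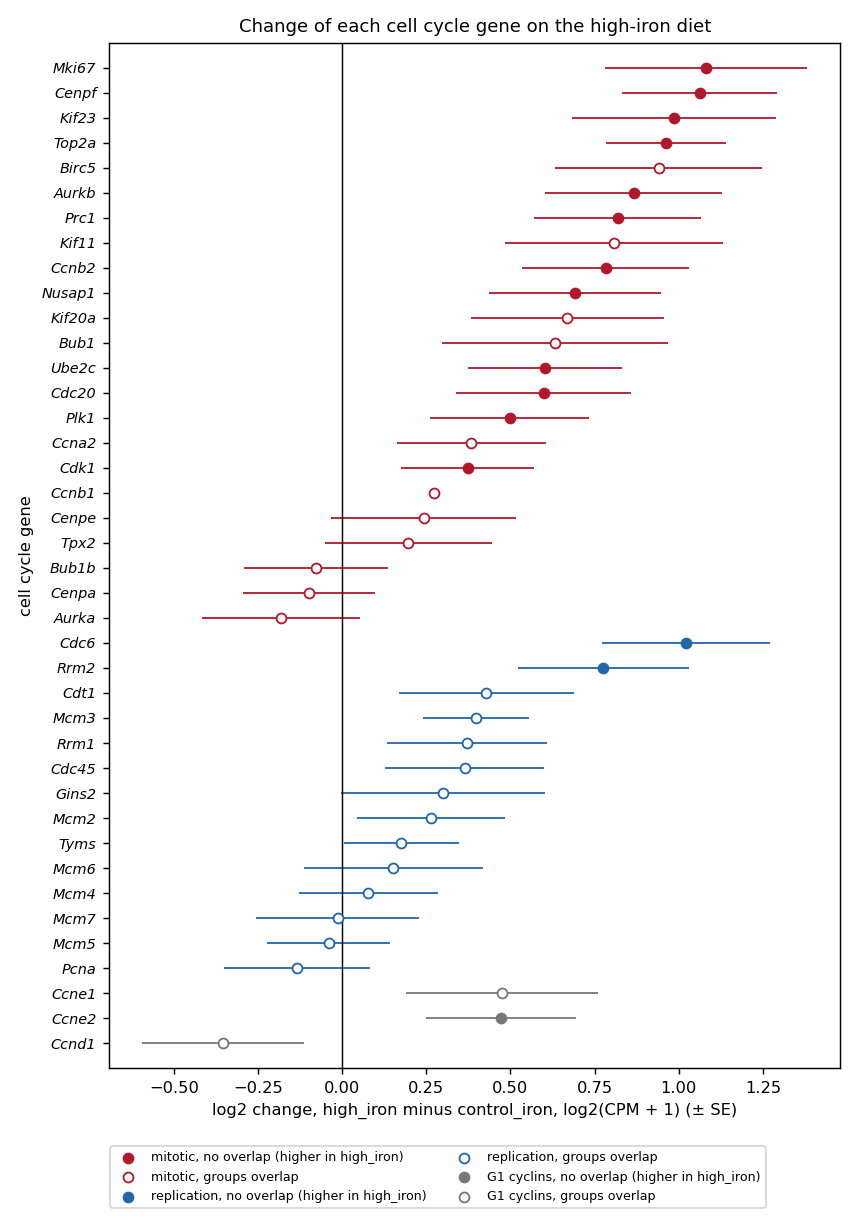
Log2 difference on the log2(CPM + 1) scale, high_iron minus control_iron, with its SE, for each cell cycle gene, ordered within the mitotic (red), replication (blue) and G1 cyclin (grey) classes; filled points mark genes whose 3 high_iron libraries were all above the control_iron libraries. Ccnb1 has no SE because it was not tested, and 12 of 23 mitotic points are filled against 2 of 14 replication points.

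No replication gene passed the threshold, as 1.02% of all genes tested did. Without overlap, all upward, were 2 of 14 (14.3%), where 9.46% of all genes tested were. A positive difference was found for 11 of the 14, where 49.5% of all genes tested had one. The 6 MCM subunits, which form the ring of the replicative helicase, all overlapped between groups and had a median log2 difference of 0.12. Mcm3 was the highest of the 40 genes per base of transcript, at 57.3 ± 8.94 RPKM in high_iron and 43.3 ± 5.64 RPKM in control_iron libraries (SD, n = 3 each). It had 178, 192 and 141 CPM in high_iron, against 114, 147 and 126 CPM in control_iron libraries, so a single pair of libraries crossed. The log2 difference of Mcm3, 0.40 ± 0.16 (SE), was the largest of the subunits and did not pass (adjusted p = 0.36 by limma). Mcm5 had 34.8, 24.3 and 26.6 CPM in high_iron, against 33.5, 25.6 and 28.6 CPM in control_iron libraries, nearly the same levels. Mcm2, Mcm4 and Mcm6 had log2 differences of 0.26, 0.08 and 0.15, and those of Mcm5 and Mcm7 were -0.04 and -0.01. Although the subunits act in equal numbers in the helicase, Mcm7 was at 2.08 ± 0.332 RPKM in high_iron and 2.14 ± 0.676 RPKM in control_iron libraries. Over 72.8% of its transcript Mcm7 is nearly identical to Gm5487, so its reads may be split.

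Control_iron libraries differed among themselves in several replication genes. Mcm2 had 43.3, 27.5 and 23.5 CPM in control_iron replicates 1 to 3, beside 33.3, 36.7 and 40.5 CPM in the high_iron libraries. Rrm1, the large subunit of ribonucleotide reductase, had 46.6, 42.1 and 46.5 CPM in high_iron, against 49.7, 35.3 and 23.5 CPM in control_iron libraries. In 9 of the 14 replication genes replicate 1 was the highest of the control_iron libraries, and in 8 of the 14 replicate 3 was the lowest of all 6 libraries. Mean log2 levels of the 14 genes were 4.14, 3.86 and 3.97 in high_iron, against 3.88, 3.69 and 3.51 in control_iron libraries. These groups overlapped, since control_iron replicate 1 was above high_iron replicate 2. For the 23 mitotic genes they were 2.86, 2.60 and 2.67 in high_iron, against 2.23, 2.05 and 2.15 in control_iron libraries, which did not overlap. Within a library, the mitotic mean minus the replication mean was -1.27, -1.25 and -1.30 in high_iron, against -1.65, -1.64 and -1.36 in control_iron libraries. That difference was smaller in size in every high_iron library than in any control_iron library, and control_iron replicate 3 lay nearest to high_iron.

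**Figure D4:**
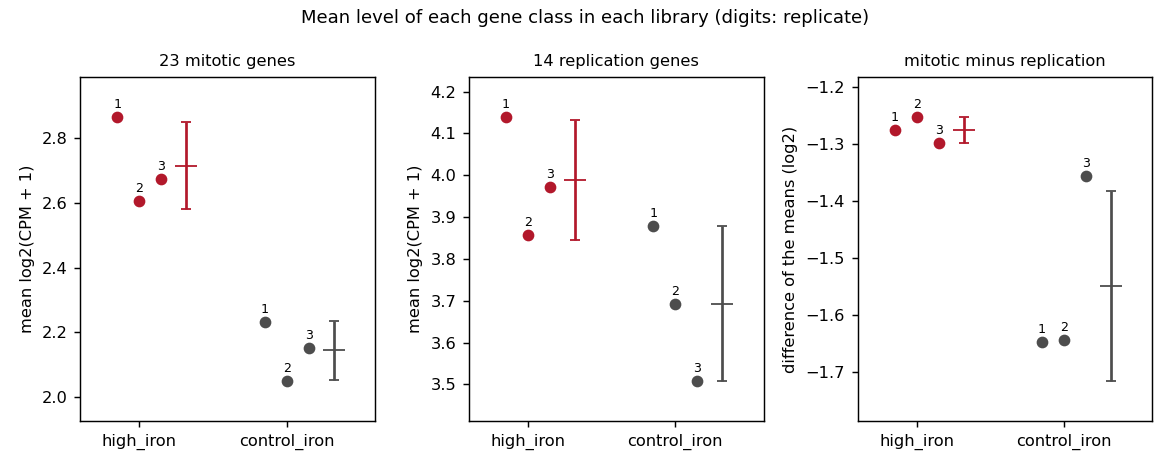
Mean log2(CPM + 1) of the 23 mitotic genes, of the 14 replication genes and the difference of the means in each library; digits give the replicate and bars the mean ± SD of 3 libraries. The groups do not overlap for the mitotic genes (2.60 to 2.86 in high_iron, 2.05 to 2.23 in control_iron) and overlap for the replication genes.

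Cdc6 and Rrm2 were the replication genes whose groups did not overlap. Cdc6, the loader of the MCM helicase, had 2.21, 2.24 and 2.54 CPM in high_iron, against 0.623, 1.02 and 0.342 CPM in control_iron libraries. The 3.52-fold ratio of means was the largest of the 40 genes, at a low level of 6 to 43 reads per library, and the log2 difference of 1.02 ± 0.25 (SE) did not pass (adjusted p = 0.11 by limma). Rrm2, the reductase subunit made in S phase, had 7.70, 5.42 and 6.07 CPM in high_iron, against 4.31, 2.23 and 3.59 CPM in control_iron libraries. Neither gene overlapped between diets. Cdt1, the partner of CDC6, averaged 8.49 ± 1.53 CPM in high_iron and 6.20 ± 2.00 CPM in control_iron libraries (SD, n = 3 each) with overlap. Cdc45 and Gins2, which complete the active helicase, were at 1.08 to 2.15 CPM and 0.727 to 2.93 CPM over all libraries, and 67.3% of the exon length of Gins2 overlaps Gse1 on the opposite strand. Pcna, the sliding clamp, had 15.1, 9.26 and 13 CPM in high_iron, against 12, 13.3 and 15.4 CPM in control_iron libraries, which overlap, and a near-identical copy, Pcna-ps2, may share its reads. Tyms, which makes thymidylate, averaged 24.2 ± 3.73 CPM in high_iron and 21.2 ± 1.51 CPM in control_iron libraries.

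Of the G1 cyclins, Ccnd1, the cyclin through which growth signals reach RB, was the second most abundant of the 40 genes per base. It had 112, 106 and 135 CPM in high_iron, against 121, 119.8 and 232 CPM in control_iron libraries. Control_iron replicate 3 stood far above the other 5 libraries, and the log2 difference was -0.35 ± 0.24 (SE, adjusted p = 0.58 by limma). Ccne2, a cyclin of S phase entry, had 8.37, 6.25 and 6.00 CPM in high_iron, against 5.40, 3.95 and 4.61 CPM in control_iron libraries, without overlap (adjusted p = 0.43). Ccne1, the related cyclin E, averaged 1.63 ± 0.548 CPM in high_iron and 0.897 ± 0.432 CPM in control_iron libraries (SD, n = 3 each). Opposite-strand genes overlap 23.4% of the exon length of Ccnd1 and 17.4% of that of Ccne2.

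A further 139 genes of the cell cycle in 9 lists were read in the same fit. None of the 133 tested passed by limma or by edgeR. An unadjusted p under 0.05 was found for 19 upward and 4 downward, where 7.3% and 4.82% of all genes tested had one. DESeq2 called 4, all higher, a share near the 3.27% it called of all genes. Among 41 other mitotic genes 38 had a positive difference, with a median of 0.43. In 17 (41.5%) the groups did not overlap upward, where 9.46% of all genes tested did not. Smc4 and Smc2, the core of condensin and the 2 with the highest mean CPM in that list, averaged 74.0 ± 6.52 and 28.3 ± 0.622 CPM in high_iron, and 73.2 ± 3.53 and 22.4 ± 1.79 CPM in control_iron libraries (SD, n = 3 each). Chosen after their values were seen, Hmmr, a spindle protein, Incenp, the scaffold of the passenger complex, and Kif22, a chromosome-arm kinesin, were called by DESeq2, with log2 differences of 1.11, 0.56 and 0.81 in the limma fit. Hmmr was closest to the limma threshold (adjusted p = 0.055). In contrast, of 36 origin and replisome genes 13 were higher and 23 lower, with a median of -0.03. Without overlap 3 were lower and 2 higher, where 8.44% and 9.46% of all genes tested were. Orc6, named after its values were seen, had the lowest difference of that list, -0.57 ± 0.17 (SE, log2), and was lower without overlap. Rpa1, which coats single-stranded DNA, and Rfc1, of the clamp loader, had log2 differences of 0.22 ± 0.17 and -0.18 ± 0.12 (SE). Of 7 other nucleotide supply genes 3 were higher, and Dut and Shmt1, with the highest mean CPM, had differences of -0.18 and 0.44.

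Regulators upstream of these genes were mixed. Of 13 RB and E2F genes 10 had a positive difference, with a median of 0.57. In 4 (30.8%) the groups did not overlap upward, where 9.46% of all genes tested did not. E2f6, a repressive E2F, averaged 51.8 ± 10.9 CPM in high_iron and 23.2 ± 9.30 CPM in control_iron libraries (SD, n = 3 each). Its difference of 1.19 ± 0.30 (SE, log2) did not pass by limma (adjusted p = 0.12), passed without control_iron replicate 1 (adjusted p = 0.041), and was the fourth call of DESeq2 (adjusted p = 0.0057). E2f4, a repressive E2F of resting cells, was at 145 ± 10.2 and 144 ± 10.6 CPM in high_iron and control_iron libraries. E2f1 and E2f8, both E2F targets themselves and named after their values were seen, had log2 differences of 0.68 and 0.96 without passing. Of the MuvB, B-MYB and FOXM1 list 5 of 7 were higher with a median of 0.08, and Rbbp4 and Lin54 had differences of 0.25 and 0.08. Foxm1 and Mybl2, which encodes B-MYB, were named after their values were seen, with differences of -0.21 and 0.56. Ccnd2, a D-type cyclin, had 583, 718 and 725 CPM in high_iron, against 788, 883 and 1149.5 CPM in control_iron libraries. Every high_iron library was below every control_iron library, with a log2 difference of -0.47 ± 0.17 (SE, adjusted p = 0.33 by limma). Its partner Cdk4 had a difference of 0.01.

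**Figure D5:**
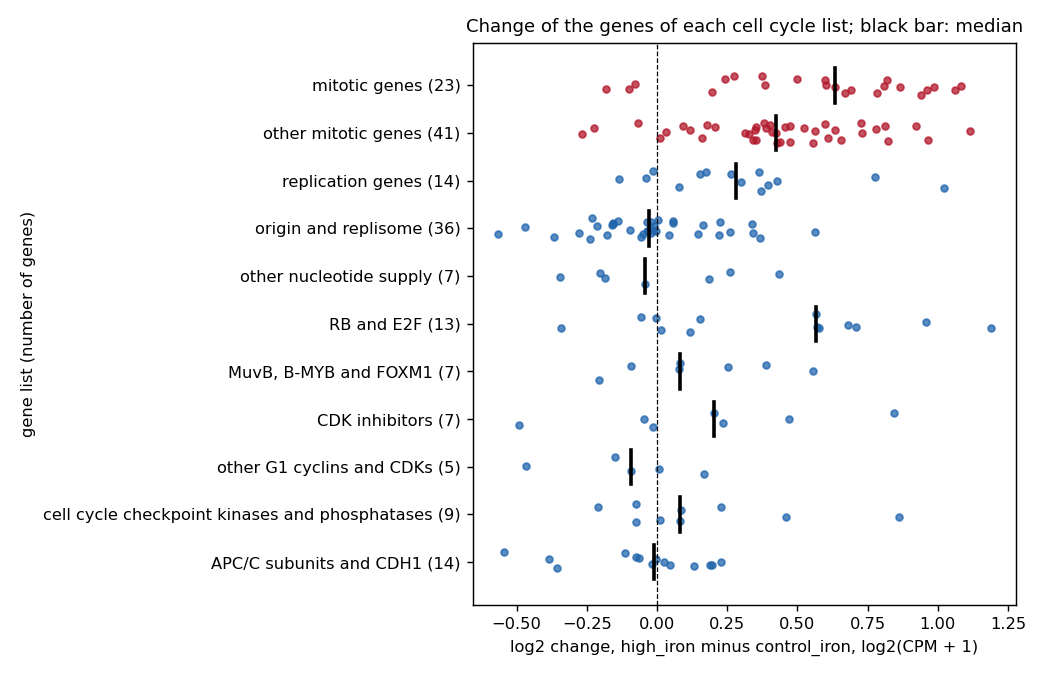
Log2 difference on the log2(CPM + 1) scale, high_iron minus control_iron, of every gene in 11 cell cycle lists (a point per gene, a black bar at the median; red for mitotic lists, vertical scatter random). The mitotic medians are 0.63 and 0.43, against 0.28 and -0.03 for the replication and the origin and replisome lists.

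CDK inhibitors, which hold the cycle in check, had differences in both directions, and none passed the threshold. Cdkn1b, encoding p27, averaged 25.2 ± 2.32 CPM in high_iron and 36.6 ± 10.2 CPM in control_iron libraries (SD, n = 3 each), lower without overlap (adjusted p = 0.38 by limma). Cdkn1c, encoding p57, was at 74.6 ± 5.57 CPM in high_iron and 76.5 ± 17.2 CPM in control_iron libraries. Named after their values were seen, Cdkn2b, encoding p15, had a log2 difference of 0.84 ± 0.25 and Cdkn1a, encoding p21, one of 0.47 ± 0.19 (SE), neither of which passed. Checkpoint kinases and phosphatases had a median of 0.08, with Cdc25a at 0.23 and Atr at -0.08. The list of APC/C subunits, CDH1 and Ube2s, 14 genes in all, had a median of -0.01, with Anapc5 at 0.13 and Anapc2 at -0.06.

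Markers of macrophages were higher in the same libraries as the mitotic genes. All 14 listed Kupffer cell and macrophage markers had a positive difference. Of the 13 tested, 3 rose by the limma test, where 0.832% of all genes tested did. Of the 14, 12 (85.7%) did not overlap upward, where 9.46% of all genes tested did not. None of these markers was at 0 in every library. By library their summed level was 517, 259 and 357 CPM in high_iron, against 76.2, 177 and 93.3 CPM in control_iron. Within high_iron the 3 libraries had the same order for this sum and for the mitotic mean, with replicate 1 highest and replicate 2 lowest. Within control_iron the library with the highest sum, replicate 2, had the lowest mitotic mean, and replicate 1, with the lowest sum, the highest. Ptprc, which encodes CD45, was at 4.13 to 7.60 CPM in high_iron and 0.604 to 2.68 CPM in control_iron libraries. The 10 lymphocyte markers, Ptprc among them, summed to 11.7 to 18.4 CPM in high_iron and 2.55 to 6.49 CPM in control_iron libraries. Of these markers, Cd3d, Cd3e and Cd3g were under 1 CPM throughout. Summed levels of 7 neutrophil and monocyte markers were 3.36 to 16.3 CPM in high_iron and 1.58 to 4.44 CPM in control_iron libraries, which overlap. Those of hepatocyte markers (493 to 960 CPM and 214 to 998 CPM), erythroid markers (673 to 3526 CPM and 898 to 2904 CPM) and stellate cell markers (64.8 to 295 CPM and 46.2 to 382 CPM, high_iron given before control_iron) overlapped. Each of the 10 hepatocyte markers had a positive difference, with a median of 0.57 (log2), and none passed by limma. In 2 of them (20%) the groups did not overlap upward, where 9.46% of all genes tested did not. The 10 endothelial markers summed to 16697 to 17846 CPM in high_iron and 17460 to 19378 CPM in control_iron libraries. Of these, 8 had a negative and 2 a positive difference, with a median of -0.19 (log2). None passed by limma, and 2 were lower and 2 higher without overlap. Mcam, which encodes CD146, averaged 8.85 ± 2.26 CPM in high_iron and 18.4 ± 8.46 CPM in control_iron libraries. Pecam1, which encodes CD31, averaged 606 ± 49.5 and 686 ± 51.5 CPM (SD, n = 3 each). Both genes overlapped between diets. The part of these other cells in the mitotic differences was not tested.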

How the data were processed

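Libraries were made from sorted liver endothelial cells, 3 per diet, with a SMARTer Ultra Low Input kit as the labels' protocols name it; such a kit does not mark strand. STAR, HTSeq and edgeR are listed with build mm10, per the submitters' processing notes; neither their versions nor the counting settings are known here. The authors deposited a signal named CPM and an RPKM table, equal to CPM per kilobase of gene length within 8.0e-11. CPM columns do not share 1 total: every value above 0 (114253, 100%) is a whole number of reads within 0.001 over a library size that differs from edgeR's TMM-scaled size by at most 2.2e-16 of its value. Reads were therefore recovered, 12963510 to 21663543 per library.

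The test was limma 3.58.1 (R 4.3.3) on log2(CPM + 1), group as the sole term, intensity trend, two-sided, 4 residual degrees of freedom. No sequencing batch is given. edgeR 4.0.16 (120 genes called) and DESeq2 1.42.0 (424 called, no adjusted p for 2) were run on the recovered reads; other alternatives were pseudocounts, filters, scaling, a replicate block, class make-up and leaving out each library. The procedure was tested on simulated reads.

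Members, role classes and lists were chosen with earlier results of these data known. Genes named were all members, plus called or else the 2 genes of highest mean CPM in each further list. Hmmr, Incenp, Kif22, Cdkn1a, Cdkn2b, E2f1, E2f8, Orc6, Foxm1 and Mybl2 fall outside this rule and were named after their values were seen. All 40 identifiers are in GENCODE M21 (GRCm38, which is mm10), used for positions and exon overlap. BLAST 2.17.0 searched copies at 95% identity over 50% of a transcript and found them for Ccnb1, Mcm7 and Pcna. For Gins2 the only match was Gse1, the gene that overlaps it on the opposite strand. Of the listed genes 3 were matched by identifier because their symbol differed.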

Additional observations from a re-analysis of the deposited data

How the results depend on the processing

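Differences of Top2a, Cenpf, Mki67, Cdc6 and Rrm2 stayed positive under every setting run. The 133 genes called over the whole table (108 higher, 25 lower) became 34 (30 and 4) without a filter on low values and 424 (328 and 96) by DESeq2. Leaving out 1 library gave 27 to 183 (23 to 149 higher, 4 to 34 lower). Among the 40 genes the single call became 0 without a filter and 2 by DESeq2, and 0 to 1 with 1 library left out, when the call was Mki67 without control_iron replicate 1. The further lists had 0 calls, 1 with a filter of 0.5 CPM (Hmmr), 4 by DESeq2 and 0 to 1 with 1 library left out. The mitotic median minus the replication median was 0.35, and 0.52 and 0.44 with pseudocounts of 0.1 and 0.5, 0.58 by edgeR, 0.58 by DESeq2 and 0.34 to 0.49 with 1 library left out. The mitotic median of 0.63 became 0.84, 0.76, 0.85 and 0.86 in the same order, and was 0.54 to 0.75 with 1 library left out. The replication median of 0.28 was 0.14 to 0.36 with 1 library left out, lowest without control_iron replicate 3. The cause of these shifts was not tested.

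With the replicate number as a block, 402 genes passed (319 higher, 83 lower), with 3 of the 40 genes (Cenpf, Mki67 and Top2a) and 2 of the further lists (E2f6 and Hmmr). Same-numbered libraries of the 2 diets had correlations of 0.13, 0.32 and 0.06 between their deviations from the group means. Not every library correlated best with its own number. Summed erythroid markers were 956, 3526 and 673 CPM in high_iron replicates 1 to 3, and 898, 2904 and 1111 CPM in control_iron replicates 1 to 3. Whether same-numbered libraries share a preparation is not given and was not tested.

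Among the cell cycle genes whose values the text gives, sign changes occurred only with 1 library left out, in genes that did not pass. The log2 difference then ranged from -0.051 to 0.28 for Mcm4, -0.19 to 0.063 for Mcm5, -0.14 to 0.42 for Mcm6, -0.14 to 0.21 for Mcm7 and -0.28 to 0.050 for Pcna. It ranged from -0.18 to 0.041 for Bub1b, -0.31 to 0.046 for Cenpa, -0.12 to 0.16 for Cdkn1c, -0.082 to 0.12 for Cdk4 and -0.042 to 0.072 for E2f4. For Rbbp4 it was -0.091 to 0.44, for Lin54 -0.015 to 0.18, for Dut -0.41 to 0.0053, for Atr -0.30 to 0.19, for Smc4 -0.048 to 0.078 and for Anapc5 -0.010 to 0.24.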
